A study of Homo sapiens with 12 samples.

Results

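The acute-phase genes described here are SAA1, SAA2 and SAA4 on chromosome 11, CRP on chromosome 1, HP on chromosome 16, and ORM1 and ORM2 on chromosome 9. Their chromatin was read from pooled lists of histone-mark peaks made in HepG2, a cell line long kept in culture that was derived from a human liver tumour. The members are the peaks that overlap 4 windows of the GRCh37 genome. The SAA window is chr11:18240000-18310000, and the other windows reach 30 kb beyond CRP, HP and ORM1: chr1:159652079-159714379, chr16:72058508-72124955 and chr9:117055336-117118755. Position alone chose the members, and no measured value entered the choice. They numbered 96 of the 273551 peaks on chromosomes 1 to 22 and X: 26 of 66513 for H3K27ac, 62 of 182592 for H3K4me1 and 8 of 24446 for H3K4me3. Per the labels, each of these marks was immunoprecipitated in 3 libraries from untreated cells, and 3 further libraries, titled as input but with an anti-mouse IgG as their antibody, were the control. Each mark has 1 pooled list and the control libraries have no list here, so no spread between libraries is known and no difference below was tested. The depth of the libraries is unknown, and a place without a peak is a place where none was listed, not a place shown to lack the mark.

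The acute-phase response is the change in plasma protein output that the liver makes within hours to days of infection or injury. Interleukin-6 acts on hepatocytes through its receptor and the factor STAT3, interleukin-1 acts through NF-κB, and both work with C/EBP factors at the promoters of the responding genes. H3K27ac, an acetylation of histone H3, is found at active promoters and enhancers. H3K4me3 is found mainly at promoters in use, and H3K4me1 at enhancers and at the flanks of promoters, including enhancers that are not acetylated. The genes differ in how they are used: SAA1, SAA2 and CRP are known as strongly inducible genes, SAA4 as the constitutive member of its family, and HP, ORM1 and ORM2 as genes that the unstimulated liver already expresses and that rise further.

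Promoter sequences are shown to set SAA4 and ORM1, whose starts lay under H3K27ac and H3K4me3 peaks, beside CRP, whose start lay under none. RefSeq promoter sequences (GRCh38.p14) matched 3 of the 7 genes. The 250 bases before the start are given 5′ to 3′ on the gene's own strand, for SAA4 at chr11:18236803-18237052 (minus strand), for CRP at chr1:159714590-159714839 (minus strand) and for ORM1 at chr9:114322848-114323097 (plus strand). These positions belong to GRCh38.p14 and are not comparable with the GRCh37 positions used for peaks. Capitals mark every match, on either strand, to 5 motifs: C/EBP (TTNNGNAA), STAT (TTCNNNGAA), a shortened NF-κB form (GGGNNNNCC), an HNF1 core (GTTAAT) and the TATA box (TATAAA). No matches overlapped in these 3 sequences.
SAA4: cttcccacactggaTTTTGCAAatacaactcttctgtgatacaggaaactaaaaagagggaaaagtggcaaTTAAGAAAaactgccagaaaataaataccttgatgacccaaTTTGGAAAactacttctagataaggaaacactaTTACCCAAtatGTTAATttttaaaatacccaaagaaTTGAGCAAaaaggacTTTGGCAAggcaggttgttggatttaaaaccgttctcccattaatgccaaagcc
CRP: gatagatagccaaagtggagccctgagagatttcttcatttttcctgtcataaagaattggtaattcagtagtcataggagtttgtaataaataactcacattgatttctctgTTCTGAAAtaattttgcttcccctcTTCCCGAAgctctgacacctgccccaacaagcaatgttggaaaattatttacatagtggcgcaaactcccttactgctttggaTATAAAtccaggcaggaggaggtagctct
ORM1: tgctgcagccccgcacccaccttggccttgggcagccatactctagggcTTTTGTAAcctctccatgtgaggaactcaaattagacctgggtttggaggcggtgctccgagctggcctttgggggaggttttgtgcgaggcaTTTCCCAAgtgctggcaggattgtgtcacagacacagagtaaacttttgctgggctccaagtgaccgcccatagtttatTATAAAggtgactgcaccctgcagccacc

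The C/EBP letters occurred 6 times before SAA4, 2 times before CRP and 2 times before ORM1. They are held, in any number of copies, by 33.2% of 35116 RefSeq promoters of the same length. The number of copies was not compared with promoters of like G and C content. CRP and ORM1 carried a TATA box at the same place, 29 to 24 bases before the start, which 10.7% of promoters hold somewhere in the window. SAA4 carried the HNF1 core 94 to 89 bases before its start (6.23% of promoters). The STAT letters (6.57%) and the NF-κB letters (48.5%) occurred in none of these 3 windows. Only these spacings were searched, so a STAT or NF-κB site with a different spacing would not be counted. The NF-κB letters have fewer bases between GGG and CC than the usual site, which was therefore not searched. The CRP match TTCCCGAA, counted under C/EBP, holds TTC and GAA closer together than the STAT letters searched. G and C made up 35.6% of the SAA4 sequence, 40.0% of CRP and 54.8% of ORM1, against a median of 58.0% (interquartile range 46.4 to 68.0) over all promoters. ORM1 and CRP thus shared the TATAAA letters, which did not occur before SAA4 in this window, and all 3 promoters held the C/EBP letters. Only the spelling TATAAA was searched, so a TATA-like stretch with other letters would not be counted. A match says only that the letters are present.

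The 4 windows differed in how many peaks of each mark they held. The ORM window held 12 H3K27ac, 15 H3K4me1 and 4 H3K4me3 peaks, and the HP window 12, 22 and 3. The SAA window held 24 H3K4me1 peaks but only 2 H3K27ac peaks and 1 H3K4me3 peak, and the CRP window held a single H3K4me1 peak and nothing else. Across all windows of 60 kb on chromosomes 1 to 22 and X, 34.9% held an H3K27ac peak, 56.1% an H3K4me1 peak and 28.2% an H3K4me3 peak. Windows with H3K4me1 and neither other mark, the pattern of CRP, made up 18.0%.

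By length, H3K27ac peaks covered 26.7% of the ORM window, 25.8% of the HP window, 4.92% of the SAA window and 0% of the CRP window, against 3.04% of the chromosomes up to their last peak. H3K4me3 peaks covered 9.54%, 7.33%, 3.41% and 0%, against 1.49%. H3K4me1 peaks covered 31.8% of the ORM window, 50.8% of HP, 28.5% of SAA and 1.05% of CRP, against 6.47%. In length covered, the SAA window was therefore close to the ORM window for H3K4me1 and far below it for H3K27ac. Its H3K4me1 peaks were weaker and narrower than those of the ORM window. Their median percentile of signal value within the list was 58.5 against 81.5, and their median width 553 against 1219 bp. Counting each listed peak singly, without joining neighbours, 1.18% of windows of the same length held as many H3K4me1 peaks as the SAA window or more. As many H3K27ac peaks as it had, or more, were held by 27.8%. The shares of the chromosomes and of all windows include stretches far from genes, and windows placed on other genes were not measured.

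**Figure D1:**
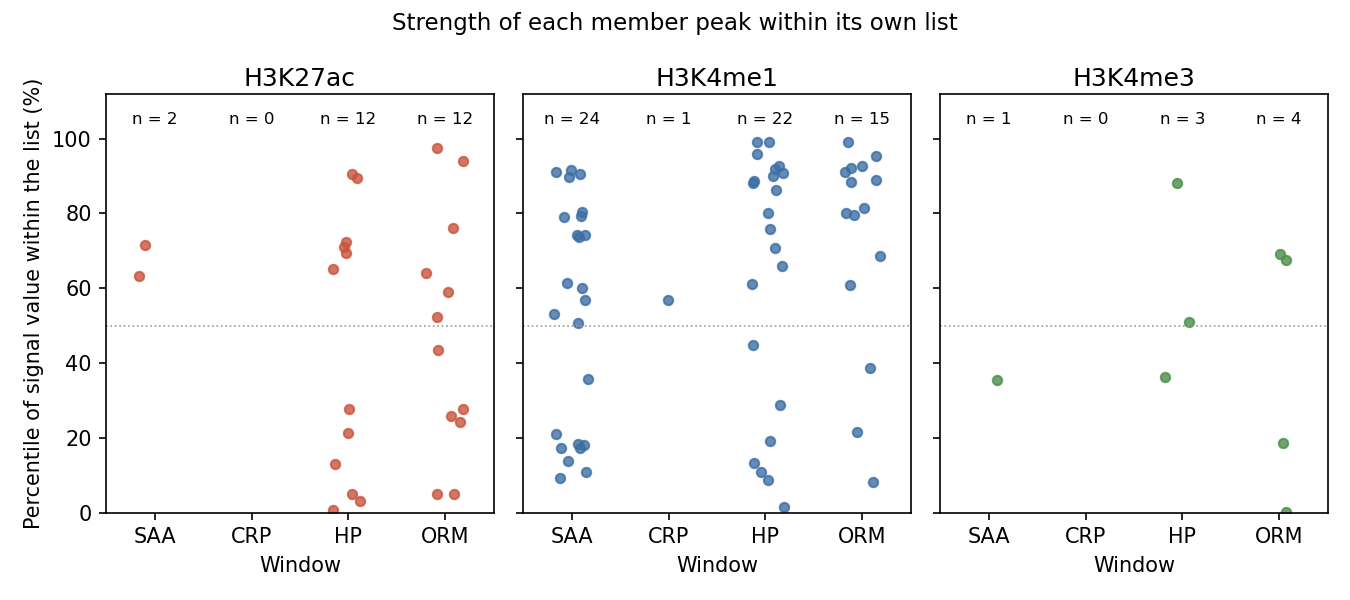
Each point is 1 peak of the 4 windows, placed on the vertical axis by the percentage of peaks in the same list with a lower signal value, for H3K27ac, H3K4me1 and H3K4me3; points are spread sideways only to be seen, and the dotted line marks 50%. The strongest H3K27ac peak lay in the ORM window (97.5%), the CRP window has a point for H3K4me1 alone, and the H3K4me3 peaks reached no higher than 88.2%.

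The signal value that the authors list for a peak is theirs and is compared only within its own list. Its strength is given below as a percentile, the percentage of peaks in the same list with a lower signal value. The 26 H3K27ac members ran from percentile 0.621 to 97.5 with a median of 55.6, the 62 H3K4me1 members had a median of 74.0, and the 8 H3K4me3 members a median of 43.7. For H3K27ac 3 of 26 lay at or above percentile 90 of the list, for H3K4me1 15 of 62, and for H3K4me3 0 of 8. The HP window held 1 of these 3 H3K27ac peaks, and only 32 bp of it lay inside the window. H3K4me1 members were thus placed high in their list at HP and ORM, with median percentiles of 78.0 and 81.5. At SAA the median was 58.5, and the single CRP peak lay at 56.9. H3K4me3 members were spread around the middle of their list.

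ORM1 and ORM2 encode orosomucoid, or alpha-1-acid glycoprotein, a plasma protein that binds lipophilic and basic drugs. Of the 7 genes they had the strongest acetylation at their starts. The ORM1 start lay inside an H3K27ac peak, chr9:117082634-117087622, with a signal value of 41.3 (percentile 97.5) and a width of 4989 bp. The ORM2 start, placed to the nearest kb, lay inside chr9:117089649-117094351, with a signal value of 30.3 (percentile 94.0) and a width of 4703 bp. These were the strongest H3K27ac peaks among the 26 members. A smaller peak, chr9:117087774-117088549 (5.00, percentile 64.1), lay between them, 151 bp from the first and 1099 bp from the second. Acetylation covered 89.6% of the 3420 bp of ORM1, from its start to its end.

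H3K4me3 had the same paired arrangement. The peak at the ORM1 start, chr9:117085314-117087662, had a signal value of 35.2 (percentile 67.6), and the peak at ORM2, chr9:117092090-117094219, had 36.5 (percentile 69.1). The first began just before the ORM1 start and ran downstream from it, and the second began within 1 kb of the ORM2 start. A weak H3K4me3 peak preceded each. Before ORM1 it lay at chr9:117084350-117085208 (2.80, percentile 18.7), and before ORM2 at chr9:117090780-117091491 (1.48, percentile 0.274). The copies thus differed little in the strength and width of their main H3K4me3 peaks, although with 1 list per mark that difference has no error. Their H3K27ac peaks were farther apart in signal value, 41.3 at ORM1 and 30.3 at ORM2.

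H3K4me1 was interrupted at ORM1 and had a similar gap near the ORM2 start. Its peaks before and after the ORM1 start were chr9:117082366-117085246 (6.13, percentile 88.9) and chr9:117086513-117087690 (10.4, percentile 99.1), with the start in the gap, 90 bp from the first and 1177 bp from the second. Near ORM2, whose start is placed only to the nearest kb and could lie in the gap or at its edge, the gap was 1046 bp long, between chr9:117089678-117091925 (6.86, percentile 92.7) and chr9:117092972-117095258 (7.62, percentile 95.2). The peaks at 10.4, 7.62 and 6.86 were the 3 strongest H3K4me1 peaks of the window. Of the 8 H3K4me3 members, 6 had their summit inside an H3K4me1 peak (95% Wilson interval of the share 40.9 to 92.9%), against 40.6% of all H3K4me3 summits. The interval treats neighbouring peaks as independent. Among the 6 were the weak peaks before ORM1 and ORM2, which lay 105 and 598 bp from the main peaks. The summit of the peak over the ORM1 start was among the other 2, whereas that of the main ORM2 peak was among the 6.

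Away from the promoters the ORM window held several acetylated places with H3K4me1 and no H3K4me3. The strongest, chr9:117079556-117081137 (H3K27ac 9.34, percentile 76.1), lay 5 kb before the ORM1 start. A farther group 17 to 19 kb before it comprised chr9:117066381-117066755 (1.74, percentile 4.97), chr9:117067038-117068222 (2.22, percentile 27.6) and chr9:117068327-117068919 (3.33, percentile 52.3), all over 1 H3K4me1 peak of 2540 bp. Another, chr9:117110725-117112003 (4.05, percentile 58.9), lay 19 kb after the ORM2 start. The remaining peaks were weak. They were chr9:117077347-117077761 (2.17), chr9:117094838-117095078 (1.74), chr9:117097728-117098301 (2.14) and chr9:117096081-117096316 (2.75), the last of which was the only H3K27ac member without either methylation. In the RefSeq gene order the ORM genes lie between COL27A1 and AKNA, so peaks toward the window's edges may belong with those genes as well as with ORM1 or ORM2.

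**Figure D2:**
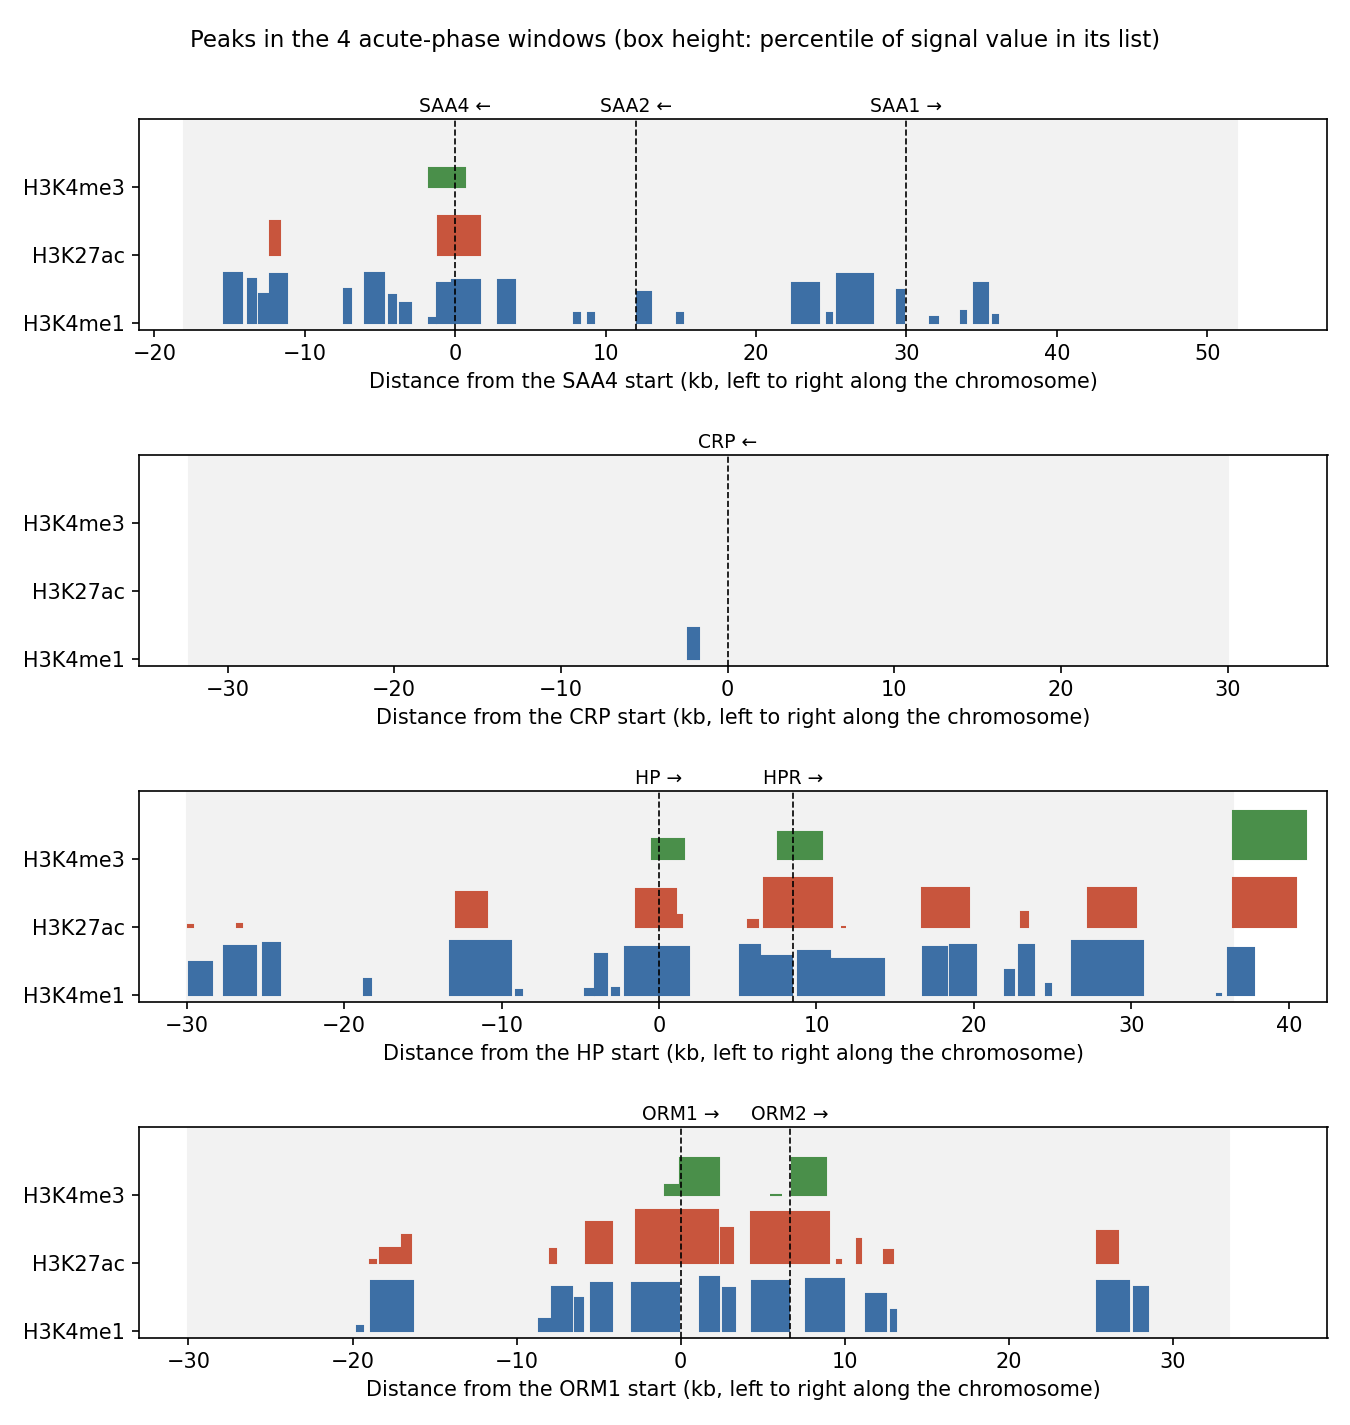
Boxes are peaks, placed by distance in kb from the start of SAA4, CRP, HP or ORM1 along the chromosome, in a row for each mark, and their height is in proportion to the percentile of signal value within the list. Grey shading marks the window, and dashed lines mark gene starts with an arrow for the direction of transcription. H3K27ac and H3K4me3 boxes stand at ORM1, ORM2, HP, HPR and SAA4, whereas SAA1 and SAA2 have H3K4me1 boxes only and CRP has 1 H3K4me1 box in 62.3 kb.

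HP encodes haptoglobin, the plasma protein that binds free haemoglobin. Its start carried all 3 marks, with H3K4me1 the highest placed in its list and H3K4me3 the lowest. The H3K27ac peak over the start, chr16:72087077-72089614, had a signal value of 6.46 (percentile 69.5). The H3K4me3 peak, chr16:72088048-72090115, had 5.66 (percentile 36.4). The H3K4me1 peak, chr16:72086380-72090393, had 5.99 (percentile 88.1) and ran unbroken over the start for 4014 bp, unlike the arrangement at ORM1. A small H3K27ac peak followed 75 bp after the first, chr16:72089690-72089992 (2.08, percentile 21.2). Of the 6448 bp of HP, 31.8% lay under H3K27ac peaks and 24.9% under H3K4me3 peaks, in contrast to 89.6% and 68.0% of ORM1.

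HPR, the haptoglobin-related gene that follows HP, is not one of the 7 genes but its start lies in the HP window and carried the stronger peaks. The H3K27ac peak there, chr16:72095147-72099463, had a signal value of 22.4 (percentile 89.6), and the H3K4me3 peak, chr16:72096085-72098863, had 14.1 (percentile 50.9). Within each list these values were above those at the HP start, 6.46 for H3K27ac and 5.66 for H3K4me3. The HPR peak of H3K27ac began just after the end of HP and was preceded by a weak one, chr16:72094149-72094786 (1.92, percentile 12.9), inside the last kb of HP. It was followed by chr16:72100078-72100391 (1.53, percentile 0.621), the weakest H3K27ac member. HP and HPR are close copies of each other, as are ORM1 and ORM2, and SAA1 and SAA2. How reads that match both copies were treated is not given in the sources used here, and its part in these values was not tested.

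On both sides of HP and HPR lay acetylated regions with very strong H3K4me1 and no H3K4me3. Before HP, chr16:72075264-72079082 had an H3K4me1 signal value of 10.3 (percentile 99.0) and contained an H3K27ac peak, chr16:72075611-72077564 (5.21, percentile 65.0), 12 kb from the start. After HPR, chr16:72114721-72119244 had an H3K4me1 signal value of 10.5 (percentile 99.1) and contained the H3K27ac peak chr16:72115750-72118771 (7.49, percentile 72.4). Together with the peak after the ORM1 start (10.4), these were the 3 strongest H3K4me1 peaks among the 62 members. The next of the HP window, chr16:72063355-72064448 (7.91, percentile 96.0), overlapped neither other mark. A further H3K27ac peak of like strength, chr16:72105202-72108167 (7.0, percentile 71.1), lay 10 kb after the HPR start. Weak H3K27ac peaks at chr16:72111483-72111940 (2.22), chr16:72061710-72062003 (1.74) and chr16:72058614-72058892 (1.68) completed the window.

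The strongest H3K4me3 member belonged to the HP window by its edge alone. It was chr16:72124932-72129562, with a signal value of 53.0 (percentile 88.2), of which 24 of 4631 bp lay inside the window. The matching H3K27ac peak, chr16:72124924-72128970 (24.1, percentile 90.7), had 32 bp inside. In the RefSeq gene order TXNL4B and DHX38 follow HPR on that side. With windows reaching 15 kb in place of 30 kb neither peak is a member.

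The SAA genes encode the serum amyloid A proteins, apolipoproteins of high-density lipoprotein, of which SAA1 and SAA2 are the acute-phase forms. Within 30 kb the window changed from fully marked to H3K4me1 alone. The start of SAA4, placed to the nearest kb, lay inside an H3K4me3 peak, chr11:18256252-18258641 (5.42, percentile 35.4), and inside an H3K27ac peak, chr11:18256873-18259676 (7.19, percentile 71.6). An H3K4me1 peak, chr11:18257820-18259631 (4.98, percentile 79.1), lay there too. The H3K27ac and H3K4me3 values are near those at HP, where H3K4me3 had 5.66 and H3K27ac 6.46. The other H3K27ac peak of the window, chr11:18245688-18246328 (4.84, percentile 63.4), lay 12 kb downstream of the SAA4 start over an H3K4me1 peak.

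Neither SAA2 nor SAA1 had an H3K27ac or H3K4me3 peak within 5 kb of its start. From the SAA4 promoter to the next listed peak the stretch without H3K27ac was 75.3 kb long, from 18259676 to 18334961, and the stretch without H3K4me3 was 83.2 kb, from 18258641 to 18341860. Both SAA2 and SAA1 lie within these stretches. H3K4me1 was nevertheless listed at both. A peak at chr11:18270115-18271043 (3.68, percentile 56.9) lay within 1 kb of the SAA2 start, and one at chr11:18287350-18287828 (3.82, percentile 60.2) within 1 kb of the SAA1 start.

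The H3K4me1 around SAA1 was the more extensive. A group of 3 peaks had summits 4 to 7 kb before the SAA1 start, of which the strongest was chr11:18283417-18285792 (6.26, percentile 89.7). The next was chr11:18280378-18282171 (4.57, percentile 73.8). After the start, chr11:18292475-18293447 had 4.59 (percentile 74.1). The 10 kb centred on the SAA1 start had 4.3 kb under H3K4me1 peaks, and the 10 kb around SAA2 had 2.1 kb. The 3 strongest H3K4me1 peaks of the window lay on the SAA4 side, at chr11:18242637-18243816 (6.61), chr11:18252032-18253251 (6.50) and chr11:18245716-18246825 (6.42). In all, 20 of the 24 H3K4me1 peaks of the SAA window overlapped neither other mark.

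CRP encodes C-reactive protein, a pentraxin that binds phosphocholine on microbes and damaged cells. Its window had the fewest peaks, 1 in 62.3 kb. This H3K4me1 peak, chr1:159682004-159682655 (3.68, percentile 56.9), did not lie at the start of the gene but at its far end, 1724 bp downstream of the start, where it covered 577 of the 2301 bp of CRP. The peak beside the SAA2 start had the same signal value, 3.68. Upstream of CRP the next H3K4me1 peak was 39 kb from the start. The nearest H3K27ac peak upstream was 103 kb away and the nearest H3K4me3 peak 209 kb away. CRP thus lacked listed promoter marks and also lacked the H3K4me1 groups that flanked SAA1.

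The 7 genes can be placed in order by the length under H3K27ac peaks in the 10 kb centred on each start. ORM1 had 7.3 kb and ORM2 6.6 kb, SAA4 and HP had 2.8 kb each, and SAA1, SAA2 and CRP had 0 kb. HPR, for comparison, had 5.3 kb. H3K4me3 gave nearly the same division, with 3.5 kb at ORM2, 3.2 kb at ORM1, 2.4 kb at SAA4, 2.1 kb at HP and 0 kb at the others. H3K4me1 did not: it covered 6.3 kb at ORM2, 6.2 kb at ORM1, 5.8 kb at SAA4, 5.7 kb at HP, 4.3 kb at SAA1, 2.1 kb at SAA2 and 0.7 kb at CRP. No spread is known for these lengths, and starts placed to the nearest kb could shift theirs. ORM1 and ORM2, and HP and SAA4, should therefore not be read as ordered among themselves.

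**Figure D3:**
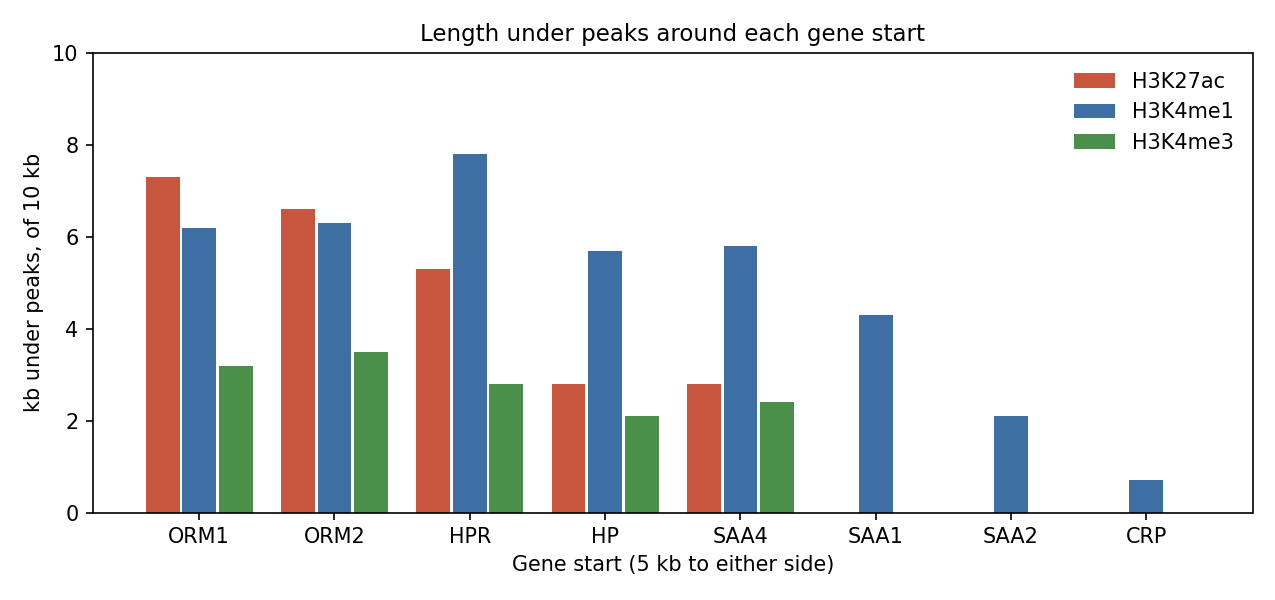
Bars give the length in kb under H3K27ac, H3K4me1 and H3K4me3 peaks in the 10 kb centred on each gene start, 5 kb to either side; each bar is 1 pooled list, so there are no error bars. H3K27ac falls from 7.3 kb at ORM1 to 0 kb at SAA1, SAA2 and CRP, while H3K4me1 is still 4.3 kb at SAA1.

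Marks were combined at the members in shares that are given beside those of the whole lists. Of the 26 H3K27ac members 7 overlapped H3K4me3 (26.9%, 95% Wilson interval 13.7 to 46.1), against 31.7% of the list, and 18 overlapped H3K4me1 without H3K4me3 (69.2%, 50.01 to 83.5), against 59.8%. Of the 62 H3K4me1 members 33 overlapped neither other mark (53.2%, 41.0 to 65.1), against 61.6%. All 8 H3K4me3 members overlapped both other marks, against 74.1% of the list. The intervals cover counting error only and treat neighbouring peaks as independent. The share of H3K4me1 peaks with neither other mark, pooled over the windows, combined high and low ones. It was 20 of 24 in SAA (83.3%, 64.2 to 93.3), above the 61.6% of the list. In HP it was 9 of 22 (40.9%, 23.3 to 61.3) and in ORM 3 of 15 (20.0%, 7.05 to 45.2), both below the list. The single CRP peak also overlapped neither mark.

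The windows have edges, and peaks just beyond them are not members. At HP the nearest H3K4me1 peak outside ended 0.1 kb left of the edge (4.13), and the nearest inside was chr16:72058637-72060146 (3.87). At ORM the nearest H3K27ac peak outside lay 2.1 kb left of the edge (2.20) and the first inside was chr9:117066381-117066755 (1.74). At SAA the nearest H3K4me1 peak outside lay 17.1 kb left of the edge (2.99), and the first inside was chr11:18242637-18243816 (6.61). At CRP the nearest outside, an H3K4me1 peak of 2.43, lay 9.0 kb right of the edge.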

How the data were processed

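The 3 marks were profiled by ChIP-seq. The values are the deposited narrowPeak lists, pooled over replicates, per the file names. The submitters' processing notes name MACS2 and hg19 (GRCh37) without a role or version; the aligner, the threshold and the use of the control are not given in the sources used here. The signal value of each peak was deposited by the authors; the sources used here do not give its reference level. The −log10 p-value and q-value of each peak were also deposited by the authors; only the q-value was used, as a filter.

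Positions are counted from 1. Peaks on chromosomes 1 to 22 and X were kept, none overlapped within a list, and 1 shared bp counted as overlap between lists. Percentiles rank a signal value within its list. Windows of 60 kb were laid end to end up to the last peak of each chromosome. The starts of CRP, HP and ORM1 came with the window definition. Those of SAA1, SAA2, SAA4, ORM2 and HPR were placed from general knowledge of GRCh37 to the nearest 1 kb, and the direction of transcription likewise. A GRCh37 annotation was not used, so the planned lists of other acute-phase genes and of cell type markers were not analysed here. Gene order and promoter sequences came from RefSeq (GRCh38.p14). Genes and motifs were chosen with earlier results of these data known. All 7 genes, each H3K27ac and H3K4me3 peak and the 3 strongest H3K4me1 peaks of each window are named, and further H3K4me1 peaks near starts were named after their values were seen. Interval code was tested on simulated data. Alternatives were a q-value filter, the stronger 50% of each list, joined peaks, other window reaches, 50% overlap, and distances from gene starts. Python 3.11.15, numpy 2.4.6, pandas 2.3.3 and matplotlib 3.10.9 were used.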

Additional observations from a re-analysis of the deposited data

How the results depend on the processing

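No paired analysis was possible because each mark has 1 pooled list, and for the same reason no replicate could be left out. Of 60 alternative values, 46 were within 1.5 times the main value: 28 of 39 counts and 18 of 21 percentages. Keeping peaks whose −log10 q-value reached 5, the marks covered 13.1% (H3K27ac), 26.0% (H3K4me1) and 4.81% (H3K4me3) of the windows, against 14.3%, 28.4% and 5.08%, and 10 H3K27ac peaks overlapped H3K4me1 without H3K4me3, against 18. The stronger 50% of each list left 14 H3K27ac and 4 H3K4me3 peaks, 12.3%, 25.3% and 2.78% covered, 4 H3K27ac peaks with H3K4me3 and 10 with H3K4me1 without H3K4me3. The H3K4me3 peaks at HP and SAA4 (percentiles 36.4 and 35.4) drop out there by construction. Joining peaks within 1000 bp gave 29 H3K4me1 peaks, 11 with neither other mark, and 15.1%, 32.8% and 5.35% covered. Windows reaching 15 kb held 17 H3K27ac peaks, 10 with H3K4me1 without H3K4me3, with 17.4%, 33.0% and 7.72% covered. Windows reaching 50 kb had 12.2%, 23.5% and 5.15% covered. In both settings the SAA window kept its fixed limits, and only the CRP, HP and ORM windows changed. Of the 7 gene starts, 4 lay inside an H3K27ac peak, also within 500 and 2000 bp. For H3K4me3 the number was 3, and 4 at both distances, ORM2 being the addition. For H3K4me1 it was 2, then 6 within 500 bp and 7 within 2000 bp, so the H3K4me1 count at starts depends on the distance allowed and on starts placed to the nearest kb. The same counts over all gene starts were not made, as a GRCh37 annotation was not used, so these numbers have no comparison. Depth is unknown, and a mark below the authors' threshold would be missing from the lists.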

Other observations

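Beyond its window, CRP lay in a long stretch without listed acetylation. No H3K27ac peak was listed on chromosome 1 between 157211853 and 159787012, a stretch of 2575.2 kb, and no H3K4me3 peak between 157211174 and 159893721, a stretch of 2682.5 kb. In the RefSeq gene order the genes to the left of CRP are APCS, which encodes another pentraxin, and the olfactory receptor genes OR10J5 and OR10J1. The H3K27ac peak that ends the stretch on the right had a signal value of 2.46, and the H3K4me3 peak there had 10.2. On the left the H3K27ac peak had 25.8.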
